A study of Arabidopsis thaliana with 24 samples.

Results

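PYK10, NAI1 and JAL34 are 3 Arabidopsis genes of the endoplasmic reticulum body and of the protein complex that forms from it. They were taken by name, as the probe sets that the array's annotation assigns to PYK10 (AT3G09260), NAI1 (AT2G22770) or JAL34 (AT3G16460) and to no other gene, which gave 3 of the 22746 probe sets left after control probe sets were set aside. All 3 passed the filter on low signals that left 15199 probe sets for testing. PYK10 and JAL34 reached the filter's threshold, the table's median of 41.7, on all 24 arrays, whereas NAI1 reached it on all 12 root arrays and on 2 of the 12 shoot arrays.

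Endoplasmic reticulum bodies are spindle-shaped compartments that bud from the endoplasmic reticulum in the order Brassicales. They are constitutive in roots and in the epidermis of seedlings, and in rosette leaves they form after wounding or jasmonate. Their main cargo in roots is PYK10, a beta-glucosidase that can act as a myrosinase, and when tissue is broken PYK10 meets jacalin-related lectins such as JAL34 and assembles with them into large complexes. NAI1 is a basic helix-loop-helix transcription factor that is needed for the bodies and for normal transcript levels of PYK10 and of its partners.

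RNA was profiled on ATH1 arrays, 1-colour oligonucleotide arrays, in roots and shoots of the Col-0 accession (stock N1092). Every plant, in every group, received 150 mM NaCl in the Murashige and Skoog medium on day 16, after 3 h of light in a day of 16 h. Roots and shoots were sampled 0.5, 1, 3, 6, 12 and 24 h later, with 2 arrays for each of the 12 groups. Untreated plants are not analysed here, so 0.5 h was the reference, and the time under salt cannot be told apart from the age of the plants. From 1 h to 12 h it cannot be told apart from the time of day either. The samples of 24 h fell close to the hour of day of those of 0.5 h, on the next day. Whether both arrays of a group stem from separate cultures is not stated in the labels; p-values thus reflect the spread among these samples, and that spread may be technical.

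The tissue labels held against marker genes. All 7 measured shoot markers, photosynthesis and stomatal lineage genes, were lower in roots (limma, at least 2-fold). All 4 measured root markers were higher there, where 18.4% of all probe sets were called lower and 22.4% higher. The 4 root markers lay below the filter's threshold on every shoot array, and the shoot markers FMA and SBPASE on every root array. These markers were tested only through the tissue in which they are high, so their tissue differences are descriptions. Both arrays of a group correlated across probe sets with r of 0.961 to 0.984 in 11 groups, while those of roots at 12 h correlated at 0.857 and differed by at least 2-fold at 2902 probe sets, against 883 or fewer in any other group. Values of roots at 12 h therefore rest on a less alike pair. Differences below are log2 values with their SE on the scale log2(signal + 2.205), which understates changes of dim genes, and a change was called at an adjusted p under 0.05 (Benjamini-Hochberg over 15199 probe sets, limma) and at least 2-fold.

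All 3 genes were higher in roots than in shoots at every time, and the arrays of the tissues did not overlap for any of them. Over all times, roots exceeded shoots by 3.01 ± 0.13 for PYK10 (adjusted p = 9.27e-13, limma), by 3.14 ± 0.15 for NAI1 (adjusted p = 3.34e-12) and by 3.95 ± 0.11 for JAL34 (adjusted p = 2.28e-15). Each of the 3 was also called higher in roots at 0.5, 1, 3, 6, 12 and 24 h, times at which 24.2%, 23.5%, 24.8%, 23.5%, 21.8% and 22.0% of all probe sets were called so; over all times the share was 22.4%. In roots none of the 3 genes was called at any later time against 0.5 h, as most probe sets were not: 0.388% to 24.2% were called in either direction. For PYK10 and NAI1 the 95% intervals do not exclude changes past 2-fold there, since at 12 h that of PYK10 reached 1.06 and that of NAI1 -1.28. The root intervals of JAL34 stayed between -0.75 and 0.77. In shoots each of the 3 genes fell: NAI1 was first called at 1 h, JAL34 at 6 h and PYK10 at 24 h. In bulk tissue, fewer cells of a type and less RNA per cell cannot be told apart.

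**Figure D1:**
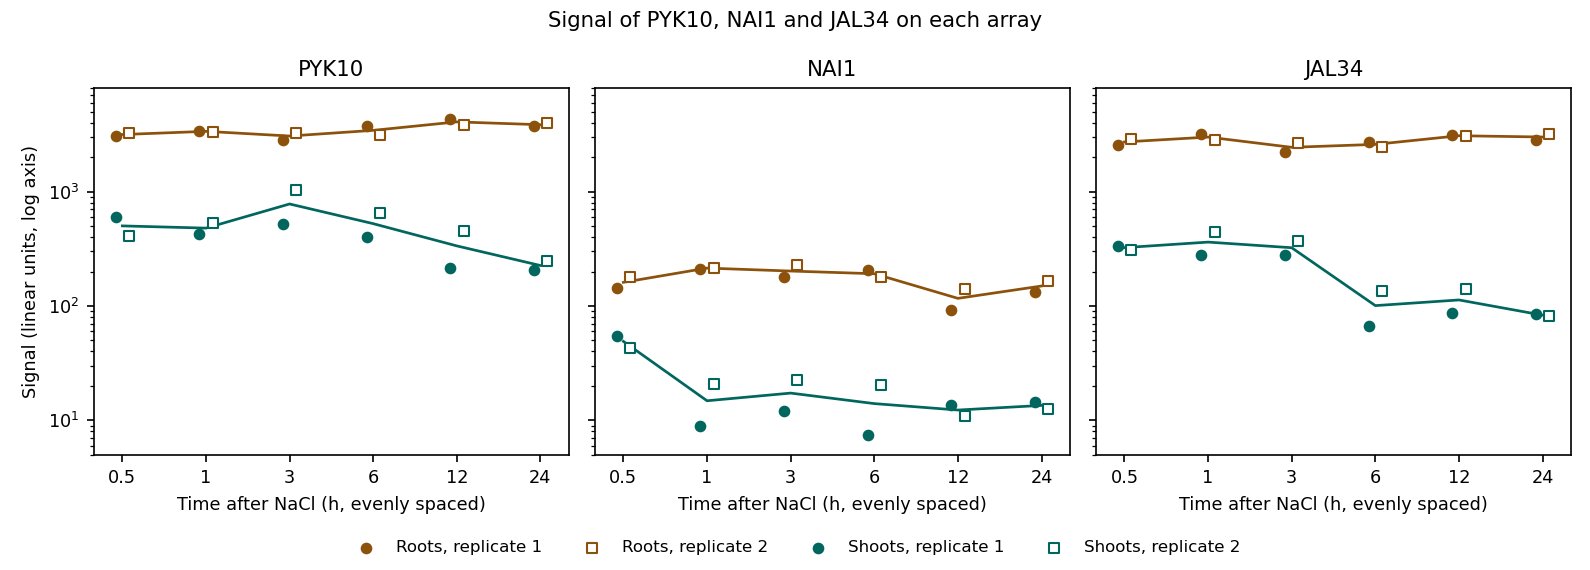
Signal of PYK10, NAI1 and JAL34 on each of the 24 arrays (y axis, log scale) against hours after NaCl was added (x axis, evenly spaced), with points for single arrays and lines through the mean of the 2 arrays of a group. For each gene all root points lie above all shoot points, and the shoot points of NAI1 drop after 0.5 h, those of JAL34 after 3 h and those of PYK10 at 24 h.

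PYK10 was among the brightest probe sets of every root array, between the 5th and the 25th of 22746. Its root signals were 3040.3 and 3261 (0.5 h), 3417 and 3304 (1 h), 2841 and 3274 (3 h), 3764 and 3092 (6 h), 4295 and 3835 (12 h), then 3728 and 3951 (24 h). The groups of 12 h and 24 h lay highest by mean, but most neighbours in the order of levels overlapped, and only 1 h lay wholly above the group that followed it, 0.5 h. The differences from 0.5 h ran from -0.05 at 3 h to 0.37 at 12 h (SE 0.33 each), with adjusted p between 0.417 and 0.967 (limma). At 24 h the difference was 0.29, with a 95% interval of -0.41 to 0.98. Whether spots this bright were saturated was not tested.

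In shoots the signals of PYK10 were 595 and 407 (0.5 h), 427 and 531 (1 h), 524 and 1034 (3 h), 397 and 651 (6 h), 215 and 454 (12 h), then 205 and 246 (24 h). Both arrays of 24 h lay below both of 0.5 h, while the arrays of the 3 h pair lay far apart and included the highest shoot array. PYK10 fell by 1.12 ± 0.33 at 24 h (adjusted p = 0.0153, limma), about 2.18-fold. The call was lost without replicate 1 of the 0.5 h shoots, where the difference was -0.85 (adjusted p = 0.148), and without replicate 1 of the 24 h shoots, where it was -0.99 (adjusted p = 0.0995). At 3 h the difference was 0.58 (adjusted p = 0.226) and at 12 h -0.65 (adjusted p = 0.148), and neither was called. Without replicate 2 of the 12 h shoots, the higher of that pair, the 12 h difference was -1.18 (adjusted p = 0.0157) and passed.

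NAI1, the transcription factor, had root signals of 144 and 178 (0.5 h), 212 and 216 (1 h), 178 and 226 (3 h), 204 and 178 (6 h), 92.6 and 140.4 (12 h), then 134 and 165 (24 h). The pairs of 1, 3 and 6 h had the highest means and the pair of 12 h the lowest, which included the lowest root array. None of the differences from 0.5 h was called: they ran from -0.48 at 12 h to 0.42 at 1 h (SE 0.38 each, adjusted p from 0.350 to 0.854 by limma). At 24 h the difference was -0.10, with a 95% interval of -0.90 to 0.69.

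The shoot signals of NAI1 were 55.0 and 43.0 (0.5 h), 8.89 and 20.8 (1 h), 12.04 and 22.6 (3 h), 7.51 and 20.5 (6 h), 13.7 and 10.9 (12 h), then 14.4 and 12.6 (24 h). Both arrays of 0.5 h lay above the other 10 shoot arrays, and those 10 overlapped freely. NAI1 fell by 1.67 ± 0.38 at 1 h (adjusted p = 0.0187, limma), and it stayed between -1.44 and -1.82 from 0.5 h at the later times (adjusted p from 0.00148 to 0.0103). No step between neighbouring times after 1 h was called, so the fall rests on the single pair of 0.5 h. The 1 h call was lost without either 0.5 h shoot array or without replicate 1 of 1 h, and the 3 h call without replicate 1 of 0.5 h or of 3 h. With 1 h as the reference the difference at 24 h was -0.03 (adjusted p = 0.969). With shoots fitted alone the 1 h call was lost as well (adjusted p = 0.0613, limma). All shoot signals after 0.5 h lay below the filter's threshold, and a pseudocount of 32 ended the calls at every later time. The differences were then -0.80 (1 h), -0.72 (3 h), -0.83 (6 h), -0.87 (12 h) and -0.83 (24 h), all under 2-fold.

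JAL34, the lectin, had root signals of 2576 and 2853 (0.5 h), 3163 and 2825 (1 h), 2229 and 2643 (3 h), 2721 and 2448 (6 h), 3094 and 3058 (12 h), then 2819 and 3177 (24 h). On the root arrays it ranked between the 12th and the 67th brightest probe set, and saturation was not tested for JAL34 either. All neighbouring root groups in the order of levels overlapped, and differences from 0.5 h lay between -0.16 and 0.18 (SE 0.28 each, adjusted p from 0.647 to 0.937 by limma). At 24 h the difference was 0.14, with a 95% interval of -0.44 to 0.73.

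In shoots JAL34 had signals of 337 and 311 (0.5 h), 277 and 446 (1 h), 278 and 367 (3 h), 67.0 and 134.3 (6 h), 85.9 and 139.7 (12 h), then 85.3 and 80.9 (24 h). The 6 arrays up to 3 h all lay above the 6 arrays from 6 h on. JAL34 fell by 1.74 ± 0.28 at 6 h (adjusted p = 0.000165, limma), by 1.54 at 12 h (adjusted p = 0.000454) and by 1.93 at 24 h (adjusted p = 6.59e-05). The fall lay in the step from 3 h to 6 h, which was -1.73 (adjusted p = 0.00162), a step at which 0.862% of all probe sets were called lower. The calls against 0.5 h held under each alternative that was run.

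**Figure D2:**
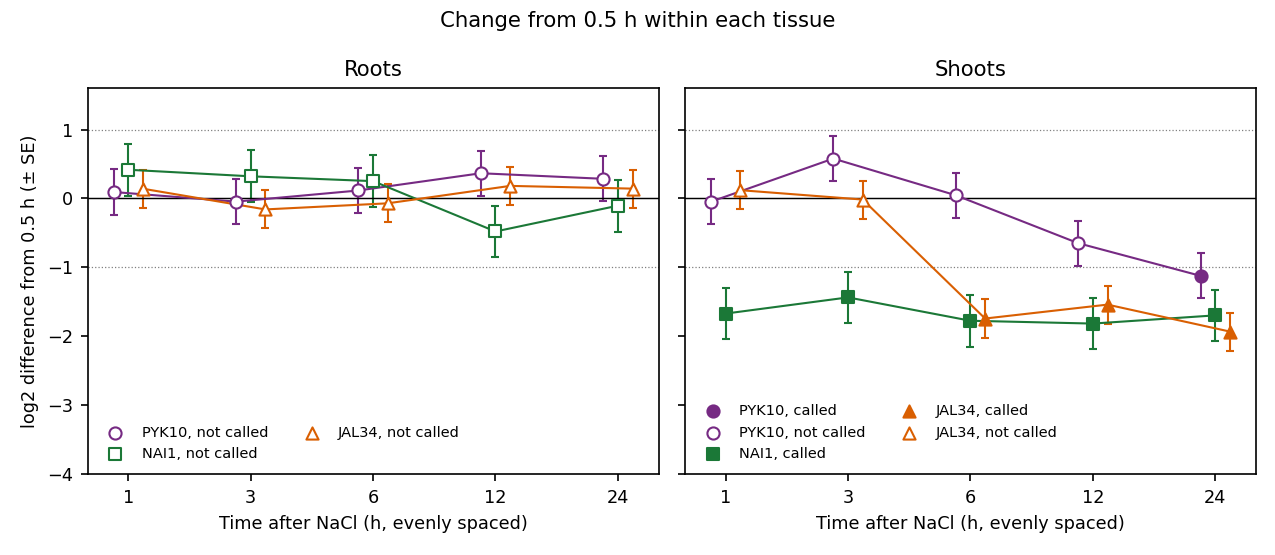
Difference from 0.5 h in the same tissue (y axis, log2) at each later time (x axis, hours, evenly spaced) for PYK10, NAI1 and JAL34, roots on the left and shoots on the right, with points for the fitted differences, filled where called, bars for ± SE and dotted lines at 2-fold. Root values stay between -0.48 and 0.42 with none called, and the shoot values of JAL34 reach -1.93 and those of PYK10 -1.12 at 24 h.

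Against 0.5 h in shoots, the number of the 3 genes called lower was 1 (1 h), 1 (3 h), 2 (6 h), 2 (12 h) and 3 (24 h). Over all probe sets the shares called lower were 1.74%, 5.08%, 5.73%, 6.50% and 6.96% in that order. In roots limma called 0 of the 3 at 1, 3, 6, 12 or 24 h, and 0 had an unadjusted p under 0.05. There 0.388%, 13.1%, 24.2%, 13.5% and 14.5% of all probe sets were called in either direction at these times. The median of all probe sets in roots was shifted by up to -0.21 from 0.5 h, at 6 h. After median centring of each array, the small root differences of PYK10 at 3 h and JAL34 at 6 h turned positive, at 0.03 and 0.05, and remained uncalled.

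The change from 0.5 h was then compared directly between tissues, as the root change minus the shoot change. For JAL34 this was 1.67 at 6 h (adjusted p = 0.00314, limma), 1.72 at 12 h (adjusted p = 0.00410) and 2.08 ± 0.39 at 24 h (adjusted p = 0.00158). For NAI1 it was 1.76 at 3 h (adjusted p = 0.0224), 2.03 at 6 h (adjusted p = 0.00650) and 1.59 ± 0.53 at 24 h (adjusted p = 0.0372). PYK10 differed at 24 h, by 1.41 ± 0.46 (adjusted p = 0.0352). Thus 1 of 3 was called at 3 h, 2 at 6 h, 1 at 12 h and 3 at 24 h, where 8.89%, 11.4%, 8.67% and 9.00% of all probe sets were called in that direction. The NAI1 value at 3 h was not called without any 1 of 4 arrays, replicate 1 of the 0.5 h shoots, the 0.5 h roots or the 3 h shoots or replicate 2 of the 3 h roots (adjusted p from 0.0731 to 0.104), nor with a pseudocount of 32 (0.997, under 2-fold). At 1 h and 12 h the value of NAI1, 2.09 (adjusted p = 0.0617) and 1.34 (adjusted p = 0.0669), was not called, and each passed without any 1 of 5 arrays. For PYK10 at 12 h it was 1.02 (adjusted p = 0.108), and 1.55 (adjusted p = 0.0150) without replicate 2 of the 12 h shoots. Leaving out single arrays ended the 24 h call of PYK10 for 7 of the 8 arrays involved, and that of NAI1 for any of the 8. With 1 h as the reference the value of NAI1 at 24 h turned to -0.50 (adjusted p = 0.555).

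The excess of roots over shoots moved accordingly. For PYK10 it was 2.67 at 0.5 h, 2.05 at 3 h, the lowest of the 6 times, and 4.08 at 24 h. The same difference for JAL34 was 3.06 at 0.5 h, 2.92 at 3 h, 4.73 at 6 h and 5.13 at 24 h. NAI1 began at 1.67 (0.5 h), stood at 3.76 by 1 h and at 3.27 by 24 h.

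Markers of each tissue were read in the other. Mean shoot signals were 13.6% of the mean root signal for PYK10, 11.7% for NAI1 and 7.76% for JAL34. Of the 4 measured root markers, the peroxidase gene AT5G66390 stood at 0.286% in shoots, AT5G17820 at 0.554% and AT4G30170 at 0.970%, while EXPA7, a root hair expansin, stood at 28.9% of a dim root signal. None was listed at 0. The summed signal of the 4 markers ranged from 10.8 to 29.2 in shoots and from 435 to 1855 in roots. It was 20.4 and 26.9 in shoots at 0.5 h and 14.1 and 19.5 at 24 h, lower on both later arrays, and its part in the shoot falls was not tested. The 7 shoot markers summed to 189 to 863 in roots, with the highest values, 863 and 654, at 24 h, against 15591 to 30625 in shoots. At 24 h in roots 3 of the 7 were called higher than at 0.5 h, beside 8.02% of all probe sets. That count ran from 1 to 5 under the alternatives that kept all arrays of both times. The root change exceeded the shoot change at 24 h for 3 of the 7, beside 9.00%.

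The rest of the endoplasmic reticulum body and of the complex was followed through lists of 9 body components and 10 complex proteins, of which 3 and 4 were measured by a probe set of 1 gene. Beside the 3 genes above, these were NAI2, which is needed for the bodies to form, and the jacalin-related lectins JAL22, JAL23 and JAL33. At 24 h in shoots 5 of the 7 were called lower and 0 higher, beside 6.96% and 7.47% of all probe sets, with a median difference of -1.12 against -0.02 over all probe sets. These 5 include PYK10, NAI1 and JAL34, and -1.12 is the value of PYK10, so the count repeats in part the calls given above. The further genes called lower were NAI2 and JAL33. In roots 1 of 7, JAL22, was called higher and 0 lower, with a median of 0.29 against -0.14, where 8.02% of probe sets were called higher. The excess of the root change over the shoot change at 24 h was called for 6 of 7, beside 9.00% of all probe sets. That count ran from 4 to 6 under the alternatives that kept all arrays of both times. The 6 of the main fit again include PYK10, NAI1 and JAL34, with NAI2, JAL22 and JAL33 as the further genes. For JAL23 the excess was 0.55 and was not called (adjusted p = 0.459). The shoot count was 2 without replicate 1 of the 0.5 h shoots and 3 without replicate 1 of the 24 h shoots.

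NAI2 (AT3G15950) fell in shoots as well. Its shoot signals were 118 and 145 (0.5 h), 84.0 and 102.2 (3 h), 46.1 and 55.5 (12 h), then 58.7 and 69.4 (24 h). It fell by 1.34 ± 0.24 at 12 h (adjusted p = 0.000450, limma) and by 1.01 at 24 h (adjusted p = 0.00403). The 24 h value lay at the 2-fold limit and fell short of it without replicate 1 of the 0.5 h shoots (-0.87), without replicate 2 of the 24 h shoots (-0.90) and with quantile normalization (-0.99), and with a pseudocount of 32 both the 12 h (-0.98) and the 24 h value (-0.77) did. In roots its signals lay between 480 and 948, and its difference at 24 h was 0.47 (adjusted p = 0.141).

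JAL33 (AT3G16450) is the neighbour of JAL34, with 0 protein-coding genes between them. In shoots its signals were 81.1 and 122.5 at 0.5 h and 28.4 and 51.3 at 24 h, pairs that did not overlap. It fell by 1.33 ± 0.35 at 24 h (adjusted p = 0.00831, limma), a call lost without replicate 1 of either time, and with a pseudocount of 32 (-0.90). Its root signals were 896 and 1508 at 0.5 h and 1780 and 2045 at 24 h, a difference of 0.71 that was not called (adjusted p = 0.125). Over all times JAL33 was higher in roots by 4.09.

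JAL22 (AT2G39310) was the listed gene that rose in roots. Its root signals were 258 and 616 (0.5 h), 684 and 1087 (12 h), then 1000 and 1339 (24 h), so both late pairs lay above the early one. The rise was 1.11 at 12 h (adjusted p = 0.0275, limma), where 6.84% of probe sets were called higher, and 1.53 ± 0.36 at 24 h (adjusted p = 0.00428). Without replicate 1 of the 0.5 h roots, the lower of that pair, the 12 h difference was 0.48 (adjusted p = 0.375) and the 24 h difference 0.91 (adjusted p = 0.0872). The 12 h call was also lost without replicate 2 of the 12 h roots (0.78, adjusted p = 0.144), with roots fitted alone (adjusted p = 0.0615) and with 1 h as the reference (0.79, adjusted p = 0.129). In shoots its difference at 24 h was -0.59 (adjusted p = 0.234).

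JAL23 (AT2G39330), separated from JAL22 by 1 gene, had its higher signals in shoots. They were 8.08 to 14.5 in roots and 34.7 to 120 in shoots, and roots minus shoots was -2.39 over all times. At 12 h and 24 h it was not called in either tissue. It passed the filter through its shoot arrays alone, 10 of 12, so its tissue difference is a description.

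**Figure D3:**
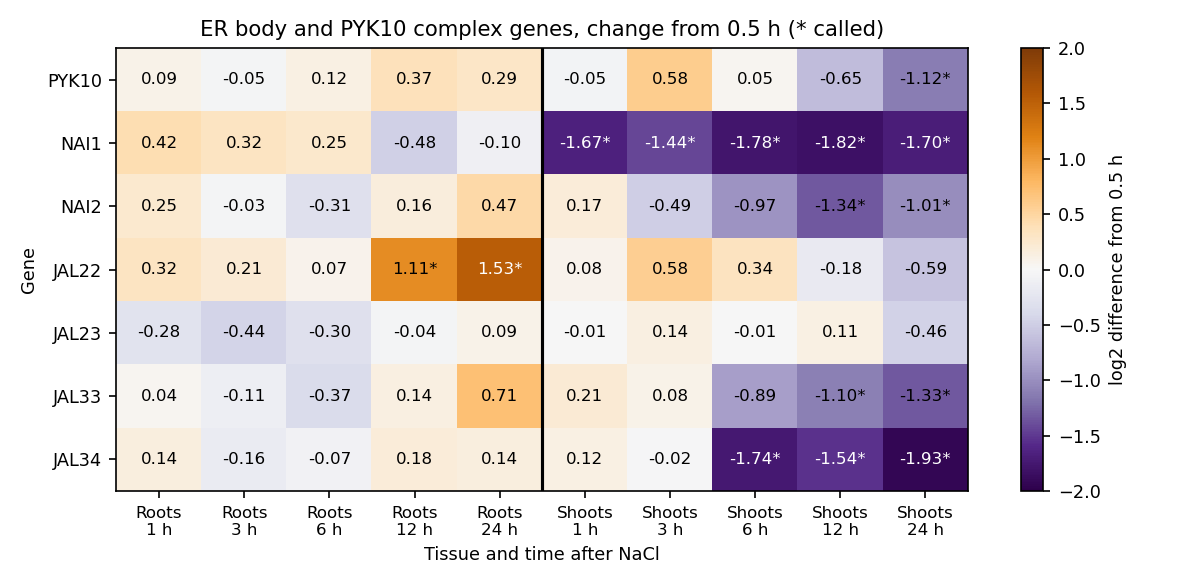
Fitted difference from 0.5 h (colour, log2) at 1, 3, 6, 12 and 24 h in roots and in shoots (columns) for the 7 measured genes of the endoplasmic reticulum body and the PYK10 complex (rows), with an asterisk where called. The shoot columns of NAI1 are low from 1 h on, those of JAL34 from 6 h on, and in roots JAL22 is highest, at 1.53 at 24 h.

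Listed with NAI1 were 3 loci to which the gene tables used here give no name, AT2G22750, AT2G22760 and AT4G37850, the first of which did not pass the filter. AT2G22760 lies next to NAI1, with 0 protein-coding genes between. Its root signals were 17.7 and 15.2 (0.5 h), 133 and 217 (3 h), 665 and 295 (6 h), 59.7 and 50.3 (12 h), then 19.8 and 15.2 (24 h). It rose by 3.21 at 3 h (adjusted p = 6.74e-05, limma) and by 4.58 ± 0.41 at 6 h (adjusted p = 1.48e-06), and at 24 h it differed from 0.5 h by 0.07 (adjusted p = 0.910). AT2G22760 passed the filter only through root arrays of 3, 6 and 12 h, so its tests are descriptions. The NAI1 root signals at 6 h, 204 and 178, gave no call at the same time. In shoots AT2G22760 stayed between 4.30 and 17.1, and the root change exceeded the shoot change at 6 h by 3.61 (adjusted p = 0.000215).

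AT4G37850 also rose in roots. Its signals there were 0.402 and 0.305 (0.5 h), 18.4 and 38.3 (3 h), 125 and 68.5 (6 h), 25.04 and 19.99 (12 h), then 30.1 and 37.0 (24 h). Both arrays of each later time exceeded both of 0.5 h. The difference at 6 h was 5.21 ± 0.59 (adjusted p = 8.52e-06, limma), but its size depends on the pseudocount, from 1.96 with a pseudocount of 32 to 6.11 with 1. AT4G37850 passed the filter on 2 root arrays, those of 6 h, and AT2G22760 on 6 root arrays, those of 3, 6 and 12 h, and neither on any shoot array, so both were tested only through the groups in which they are high.

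**Figure D4:**
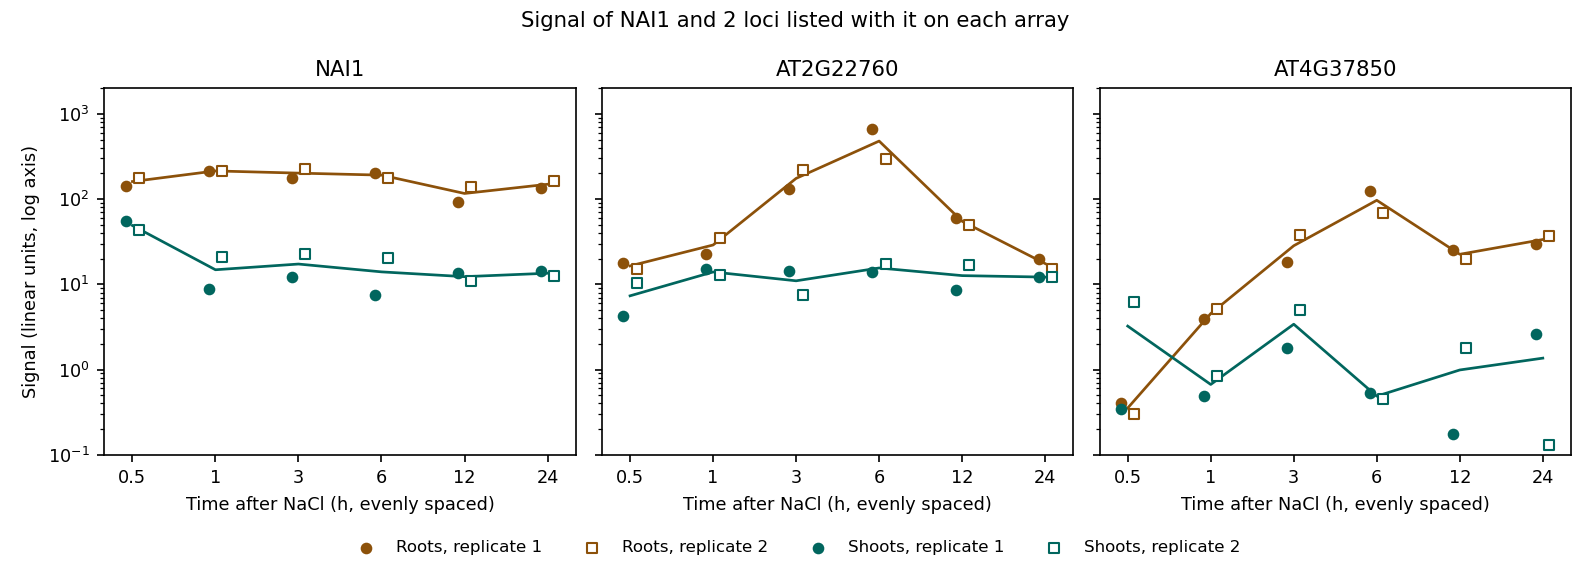
Root and shoot signals (y axis, log scale) of NAI1 and of the listed loci AT2G22760 and AT4G37850 on each array against hours after NaCl was added (x axis, evenly spaced), with points for arrays and lines through group means. In roots AT2G22760 peaks at 6 h, at 665 and 295, while NAI1 stays between 92.6 and 226.

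PYK10 was set beside the other beta-glucosidases of its family. Of 44 listed genes, 20 had a probe set of their own and 13 of those passed the filter; BGLU21 and BGLU22 share a probe set and were not used. In roots at 24 h 6 of 13 were called higher and 1 lower, beside 8.02% and 6.52% of all probe sets, BGLU24 rising most, by 4.48 ± 0.51 (adjusted p = 2.00e-05, limma), and BGLU44 falling by 1.59 (adjusted p = 0.000315). Of the 6, 3 (BGLU24, BGLU27 and BGLU31) passed the filter only through later root arrays, where they are high, and with the filter applied to all 24 arrays 1 was called higher, so the count is a description. In shoots 1 was called higher, BGLU25 by 1.83 ± 0.18 (adjusted p = 1.82e-06), where 7.47% of probe sets were, and 1 lower, PYK10 itself. The root change at 24 h exceeded the shoot change for 6 of the 13 and lay below it for 2, beside 9.00% and 8.40% of all probe sets. PYK10 is among the 6, and this count is a description too, with the same limit of the filter. BGLU25 is among the 2: its tissue difference, -1.21 (adjusted p = 0.00376, limma), ran opposite to that of PYK10.

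Other lists around the bodies had few measured genes. Of 15 chaperone and stress genes of the endoplasmic reticulum 5 were tested, and at 24 h 1 was called in roots, where 8.02% of probe sets were called higher: BZIP60, a transcription factor of the unfolded protein response, which rose by 2.46 ± 0.43 (adjusted p = 0.000576, limma), and 0 in shoots. In shoots its difference was 0.38 (adjusted p = 0.553). At 6 h in roots 1 of the 5 was called higher and 2 lower, beside 11.0% and 13.2% of all probe sets, and at 12 h the root change lay below the shoot change for 3 and above it for 1, beside 11.8% and 8.67%. OPCL1, an enzyme of jasmonate synthesis and the 1 measured of 12 jasmonate genes, was called higher in roots at 3 h, by 2.32, and at 6 h, by 3.10 ± 0.50 (adjusted p = 0.000142), beside 8.20% and 11.0% of all probe sets. At 6 h its root change exceeded its shoot change by 2.67 (adjusted p = 0.00725), and at 24 h it differed by 0.25 in roots and 0.06 in shoots, neither called. UGT74B1, a glucosyltransferase of glucosinolate synthesis and the 1 measured of 11 indole glucosinolate genes, differed by -0.56 and -0.18, under 2-fold in both tissues. Of 8 further jacalin-related and specifier genes 0 were measured.

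Across all 24 arrays with the mean of each tissue taken out, PYK10 and JAL34 correlated at r = 0.70, and at 0.80 over the 12 root arrays and 0.70 over the 12 shoot arrays. NAI1 and JAL34 correlated at 0.49 over all arrays, and at 0.56 in shoots and -0.25 in roots. For PYK10 and NAI1 the values were 0.26, 0.36 and -0.53. The closest pairs among the listed genes were NAI2 with JAL33, 0.86, and NAI2 with JAL34, 0.84. These are descriptions, since the points share arrays, scaling and times.

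Among 8123 probe sets of 1 gene, those most like PYK10 by this measure were AT3G15570 (r = 0.84), AT4G36430 (0.79), AT5G02160 (0.78), HEME1 (0.78) and AT1G15740 (0.78). Most like JAL34 were AT1G22690 (0.90), AT5G08650 (0.89), EXPA8 (0.87), AT1G49975 (0.86) and, again, AT3G15570 (0.85). For NAI1 they were CSLA03 (0.75), AT5G18150 (0.75), AT5G19120 (0.75), AT1G24440 (0.73) and AT1G68360 (0.72). For each of these the likeness was higher over the shoot arrays than over the root arrays. Over the shoot arrays r ran from 0.79 to 0.93. Over the root arrays it ran from -0.50 (HEME1 with PYK10) to 0.60 (EXPA8 with JAL34), and it was -0.17 for AT1G22690 with JAL34. In ranks the choice differed: of the 5 genes named, Spearman's rho kept 0 for PYK10, 2 for NAI1 and 3 for JAL34.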

How the data were processed

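The 24 ATH1 arrays, 12 of roots and 12 of shoots, were deposited as 1 table of intensity values per probe set on a linear scale; MAS5 is named per the submitters' processing notes, its version and settings not given in the sources used here. Trimmed means of 99.2 to 99.5 on every array show values scaled per array, and this scaling was kept. Of 22810 probe sets, 64 controls were left out. Annotation gave 1 gene for 13513 probe sets, several for 503 and none for 8794; 13436 of the first were matched by gene identifier, and probe sets of several genes were not named. Gene positions were used only to order genes and count those between listed loci, and no coordinate is given, since the files name no genome build.

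Intensities were analysed as log2(signal + 2.205), with the 10th percentile of the table as pseudocount. Probe sets reaching the table's median, 41.7, on 2 or more of the 24 arrays were tested. A limma 3.58.1 model (R 4.3.3; lmFit, then eBayes with trend) held the 12 group means, and p-values were adjusted by Benjamini-Hochberg over 15199 probe sets within each contrast. Tests were two-sided. The procedure was tested on simulated data. Plots were made in matplotlib 3.10.9 (Python 3.11.15). The number of arrays limits the precision.

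The genes and all gene lists were chosen with earlier results of these data known. Named were PYK10, NAI1 and JAL34, and every measured gene of the lists of body components, complex proteins and loci kept with NAI1. So were the 5 probe sets most like each of PYK10, NAI1 and JAL34 by Pearson r. Of the other lists, except those of tissue markers, the highest and lowest called member at 24 h in each tissue was named. The 4 measured root markers, FMA, SBPASE, BGLU27 and BGLU31 were named for their signal levels. OPCL1 and UGT74B1, the single measured members of their lists, were named after their values were seen. No replicate block entered the model, since the numbers did not pair the arrays: over 66 pairs of groups, deviations of same-numbered arrays correlated between -0.26 and 0.23, with 5 pairs over 0.1. The alternatives tried changed the pseudocount, the scaling, the filter, the trend, the fold limit or the reference time (1 h), fitted each tissue by itself, added a replicate block, or left out the root arrays of 12 h or each array in turn.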

Additional observations from a re-analysis of the deposited data

Results flagged for a closer look

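For 7 results the change from 0.5 h differed between roots and shoots by the test of the difference itself (limma, interaction term). The root change exceeded the shoot change for PYK10 by 1.41 at 24 h. For NAI1 it did so by 1.76 at 3 h, by 2.03 at 6 h and by 1.59 at 24 h. For JAL34 the excess was 1.67 at 6 h, 1.72 at 12 h and 2.08 at 24 h. In each case the shoot value was called lower than at 0.5 h and the root value was not called. The NAI1 value at 3 h was not called without any 1 of 4 arrays, and those of PYK10 and NAI1 at 24 h without most or any of the 8 arrays involved.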

How the results depend on the processing

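Of 4005 values recomputed under alternatives, 3837 kept their direction and call, 62 lost a call, 17 gained one, 56 changed sign and 33 counts moved. The called shoot and tissue-difference values of JAL34 held under each alternative run, at -1.99 to -1.88 at 24 h without single arrays. With a pseudocount of 32, NAI1 in shoots at 24 h was -0.83 (adjusted p = 0.00235, limma) and its tissue difference 0.74 (adjusted p = 0.0402), both under 2-fold, and 2 listed genes were lower in shoots. Quantile normalization gave 1.48 (adjusted p = 0.0590) for the NAI1 tissue difference at 24 h, and no filter, by testing more probe sets, 1.41 (adjusted p = 0.0506) for PYK10 and 1.59 (adjusted p = 0.0516) for NAI1. A filter on all 24 arrays dropped NAI1 and 2 other listed genes, leaving 3 listed genes lower in shoots at 24 h. Over all times it left 0 listed genes lower in roots than in shoots, against 1 in the main fit. Against 1 h, the tissue difference of PYK10 at 24 h was 1.27 (adjusted p = 0.0684), and NAI1 gave -0.026 in shoots at 24 h and tissue differences of -0.33, -0.061, -0.75 and -0.50 at 3, 6, 12 and 24 h; the causes of these changes were not tested. Small uncalled values also changed sign against 1 h (NAI1 roots -0.095 at 3 h and -0.17 at 6 h, NAI1 shoots 0.23 at 3 h, PYK10 tissue difference -0.072 at 6 h, NAI2 roots -0.087 and JAL23 roots 0.23 at 12 h, AT2G22760 roots -0.64 at 24 h), with median centring (PYK10 roots 0.027 at 3 h and shoots -0.039 at 6 h, JAL34 roots 0.047 at 6 h, JAL23 roots 0.034 at 12 h) and with quantile normalization (PYK10 roots 0.15 at 3 h and -0.073 at 6 h, tissue difference -0.16 at 6 h). Of the 5 genes most like PYK10, 3 were shared without the root arrays of 12 h and 0 by Spearman's rho, which shared 2 for NAI1 and 3 for JAL34. The replicate numbers share only a number; a fit with them as a block added calls for the NAI1 tissue difference at 1 h (2.09, adjusted p = 0.0413) and 12 h (1.34, adjusted p = 0.0460), against 0.0617 and 0.0669 without it, and changed no other call.

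Without single arrays, the shoot difference at 24 h ran from -1.40 to -0.85 for PYK10, and the tissue difference from 1.14 to 1.68 for PYK10 and from 1.42 to 1.76 for NAI1, and listed genes lower in shoots numbered 2 to 5 and higher in roots 0 to 1. Signs changed within these ranges: for PYK10, roots -0.15 to 0.056 at 3 h and -0.026 to 0.26 at 6 h, shoots -0.32 to 0.23 at 1 h and -0.31 to 0.40 at 6 h, tissue difference -0.13 to 0.41 at 1 h and -0.29 to 0.43 at 6 h; for JAL34, roots -0.15 to 0.0055 at 6 h, shoots -0.22 to 0.46 at 1 h and -0.22 to 0.18 at 3 h, tissue difference -0.32 to 0.36 at 1 h and -0.34 to 0.057 at 3 h. The same held for NAI1 roots at 24 h (-0.26 to 0.049), JAL22 shoots at 12 h (-0.49 to 0.14), JAL23 roots at 12 h (-0.17 to 0.085) and 24 h (-0.075 to 0.25), JAL23 shoots at 12 h (-0.037 to 0.26), JAL33 roots at 12 h (-0.24 to 0.51), NAI2 roots at 12 h (-0.15 to 0.47) and AT2G22760 roots at 24 h (-0.098 to 0.24). Shoot values of NAI1 after 0.5 h and all values of AT4G37850 at 0.5 h lay low on the arrays, and their size depends on the pseudocount.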
